A study of Mus musculus with 12 samples.

Results

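The genes that encode the proteasome and its helpers were followed in the bone marrow of young and old mice. They were chosen by symbol: every protein-coding gene of the RefSeq GRCm38 table whose symbol begins with Psma, Psmb, Psmc, Psmd, Psme, Psmf or Psmg and a number. The rule found 51 genes. Each gene was represented by the region of open chromatin (peak) with the highest mean count whose centre lay within 1 kb of either end of the gene. With this rule 45 of the 51 genes had a peak, out of 12172 protein-coding genes that had one by the same rule and 75281 peaks in all. All 45 peaks passed the filter on low counts, and their counts ran from 90 to 1297 per library.

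Accessibility was measured by ATAC-seq, a method in which a transposase inserts sequencing adapters into nucleosome-free DNA, so that the count over a peak reflects how open the chromatin is. The 12 libraries were bone marrow of the inbred, obesity-prone strain NZO/HILtJ at 3 or 18 months of age, with 3 females and 3 males per age and no treatment, transgene or deleted gene named in the labels. The comparison asked how accessibility at these genes differed between the ages. Each library carried its own mouse number. By the labels' protocols, up to 50000 cells entered each library after a sort for CD3e+ CD8+ T cells in naive and memory fractions, whereas the sample labels name bone marrow and no sorted fraction. Against markers, the defining T cell genes Cd3e, Cd8a, Cd8b1, Cd4, Zap70 and Bcl11b had no peak at a gene end, while 23 of 25 myeloid and 11 of 20 erythroid marker genes had one. Of the 15 T cell markers, 9 had a peak, Cd3d and Cd3g among them. The libraries are described below as bone marrow, the name in the labels.

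Total counts in peaks ranged from 7668099 to 12756647 per library, and all values below are counts scaled to the library total (CPM), with library totals adjusted by the trimmed mean of M values (TMM). The 18-month females formed sequencing run 14 and the 18-month males run 15, and the younger mice were in runs 28, 29, 30 and 31. No run held both ages, so age, run and date cannot be told apart, and at 18 months neither can sex and run. The p-values measure the spread between these mice. In a bulk sample, fewer open copies per cell and fewer cells of a type with that site open cannot be told apart.

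The proteasome degrades proteins that carry ubiquitin. Its barrel, the 20S core, is built of outer rings of alpha subunits, which form the gate, and inner rings of beta subunits, of which Psmb5, Psmb6 and Psmb7 carry the cutting sites. The 19S cap recognises ubiquitin, unfolds the substrate with a ring of ATPases at its base and removes the ubiquitin chain in its lid. In cells of the immune system and after interferon gamma, Psmb8, Psmb9 and Psmb10 replace Psmb5, Psmb6 and Psmb7 in newly built cores, which gives the immunoproteasome and alters the peptides presented on MHC class I.

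The peaks of these genes mostly covered an annotated start. Of the 45 peaks, 44 (97.8%) lay in the top 25% of all tested peaks by abundance, as did 69.3% of the gene-end peaks of all protein-coding genes; the rule itself took the most abundant peak at each gene. Their median width was 1805 bp (519 to 3879 bp), against 706 bp for all tested peaks and 1414.5 bp for the gene-end peaks. A RefSeq promoter entry existed for 38 of the 45 genes, and the peak covered the annotated start in 37 of them. The exception was Psma3, whose peak centre stood at -5414 bp from the listed start. In 24 genes the centre was within 300 bp of the start. A single peak served a member and another protein-coding gene in 10 cases, so the reading cannot be assigned to either gene: Psmc2 with Dnajc2, Psmd8 with Catsperg1, Psmd13 with Sirt3, Psme3ip1 with Rspry1, Psma4 with AY074887, Psmb3 with Pcgf2, Psmc5 with Ftsj3, Psma2 with Mrpl32, Psmb9 with Tap1 and Psmg2 with Cep76.

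The reference sequence before the start is shown for the 3 immunoproteasome subunits, for the constitutive subunits Psmb5 and Psmb6, and for Psme3 and Psmd11, members with some of the largest age differences. The sequences are RefSeq GRCm38.p6, 5′ to 3′ on the strand of the gene, and run up to the listed start except where an annotated gene intervenes. Capitals mark a match on either strand to TGACNNNGC (the core of the antioxidant response element, bound by NFE2L1 and NFE2L2), CCAAT, TTCNNNGAA (the gamma-activated site) or CCGGAAG (the core bound by ETS factors). Psmb8 lies on the plus strand (chr17:34197945-34198194), Psmb9 on the minus strand (chr17:34187331-34187555), and Psmb10 on the minus strand (chr8:105938393-105938642). Psmb5 lies on the minus strand (chr14:54617996-54618245), Psmb6 on the plus strand (chr11:70525107-70525323), Psme3 on the plus strand (chr11:101315963-101316212) and Psmd11 on the plus strand (chr11:80428365-80428614).
Psmb8: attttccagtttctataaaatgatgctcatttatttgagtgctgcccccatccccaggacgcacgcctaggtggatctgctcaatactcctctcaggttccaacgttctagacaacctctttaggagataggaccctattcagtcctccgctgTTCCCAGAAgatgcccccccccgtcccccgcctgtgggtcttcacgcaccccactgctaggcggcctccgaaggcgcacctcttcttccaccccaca
Psmb9: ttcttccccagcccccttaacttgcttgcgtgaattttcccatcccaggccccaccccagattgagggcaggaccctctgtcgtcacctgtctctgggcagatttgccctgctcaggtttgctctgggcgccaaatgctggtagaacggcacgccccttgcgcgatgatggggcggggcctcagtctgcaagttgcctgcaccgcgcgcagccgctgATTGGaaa
Psmb10: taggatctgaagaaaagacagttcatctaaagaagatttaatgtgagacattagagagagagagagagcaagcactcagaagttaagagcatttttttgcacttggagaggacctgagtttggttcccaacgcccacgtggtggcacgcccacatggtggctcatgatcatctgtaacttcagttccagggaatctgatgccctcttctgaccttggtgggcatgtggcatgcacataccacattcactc
Psmb5: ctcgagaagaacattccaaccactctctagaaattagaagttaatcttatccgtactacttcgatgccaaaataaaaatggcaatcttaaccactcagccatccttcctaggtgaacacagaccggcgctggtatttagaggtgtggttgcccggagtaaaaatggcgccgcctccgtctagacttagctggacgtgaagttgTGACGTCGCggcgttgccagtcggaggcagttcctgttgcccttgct
Psmb6: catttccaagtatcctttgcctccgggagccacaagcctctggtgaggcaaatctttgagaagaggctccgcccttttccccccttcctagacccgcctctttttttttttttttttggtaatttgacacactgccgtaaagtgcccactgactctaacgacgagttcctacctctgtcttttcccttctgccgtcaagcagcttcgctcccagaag
Psme3: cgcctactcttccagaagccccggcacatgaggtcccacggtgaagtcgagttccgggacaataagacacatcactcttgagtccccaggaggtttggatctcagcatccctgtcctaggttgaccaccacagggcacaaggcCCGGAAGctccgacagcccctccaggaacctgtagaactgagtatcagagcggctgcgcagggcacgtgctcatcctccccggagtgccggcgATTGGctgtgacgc
Psmd11: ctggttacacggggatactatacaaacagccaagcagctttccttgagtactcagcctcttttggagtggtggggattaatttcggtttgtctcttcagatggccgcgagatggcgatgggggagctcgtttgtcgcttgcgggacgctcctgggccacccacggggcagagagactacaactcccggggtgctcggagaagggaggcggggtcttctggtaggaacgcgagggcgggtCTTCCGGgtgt

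Psmb8 held a gamma-activated site match, TTCCCAGAA, with its first base 97 bases before the start, and Psmb5 held an antioxidant response element match, TGACGTCGC, 47 bases before it. Psme3 and Psmd11 each held the ETS core, the latter on the opposite strand 11 bases before the start. The Psmb9 stretch ends upstream where Tap1, the peptide transporter gene on the opposite strand, begins, so both genes read outward from 1 peak. No marked motif stood in the printed stretches of Psmb10 and Psmb6, which says only that these letters are not in these stretches. The Psmb6 stretch stops 34 bases before the listed start, and a TGACNNNGC match lies in the unprinted bases before the start. Of the Psmb10 stretch, only the 97 bases nearest the start lie in its peak, whose centre lay 883 bp inside the gene from the listed start.

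Over the 250 bases before the listed start (both strands), the ETS core CCGGAAG stood in 12 of the 37 members whose peak covered the start, or 32.4%. It stood in 6.90% of all 32817 RefSeq promoter windows and in 13.9% of the 13280 windows with a peak over the start. The GC box GGGCGG was in 59.5% of the member windows, against 32.7% of all windows and 56.9% of those under a peak. TGACNNNGC stood in 5 members (Psmb5, Psmb6, Psmc6, Psmd12 and Psmd9), or 13.5% against 10.2% of all windows and 12.2% of those under a peak. The core of the interferon-stimulated response element was in 3 members, or 8.11% against 2.97% and 2.66%, and these were Psmb3, Psmd4 and Psmd9. CCAAT stood in 32.4% of member windows and 33.8% of all windows. TTCNNNGAA was in 5.41% of member windows and 7.01% of all windows, and the YY1 core AAGATGG in 5.41% and 4.49%. These shares describe letters and were not tested, and the windows of neighbouring genes overlap in part.

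With sex as a covariate, 14 of the 45 proteasome peaks were lower at 18 than at 3 months and 31 did not pass (edgeR quasi-likelihood test, Benjamini-Hochberg adjusted p under 0.05 over all 75164 tested peaks). None was higher, also at an unadjusted p under 0.05 or with DESeq2. The lower peaks were those of Psme3, Psmg2, Psmg4, Psmd11, Psmc3ip, Psmd2, Psmd13, Psmd7, Psmc3, Psmc2, Psma5, Psmb9, Psmd5 and Psmd3, with log2 fold changes between -0.64 and -0.26. Among all tested peaks 11.6% were lower and 9.43% higher, but among the gene-end peaks of all protein-coding genes 25.9% were lower and 3.76% higher, and in the top 25% by abundance 27.8% and 9.16%. The members' share of 31.1% lower was close to the shares of those like peaks, so the count is not a result about proteasome genes in particular. In 42 of the 45 genes, or 93.3%, the log2 fold change was negative, against 71.1% of gene-end peaks, 63.6% of the top 25% by abundance and 47.0% of all tested peaks. It was negative in 42 with DESeq2, 39 with total counts, 36 with width offsets and 30 when each library was scaled by its trend on abundance, beside 72.2%, 60.3%, 59.4% and 56.6% of gene-end peaks. The members' median was -0.20, against 0.02 for all tested peaks and -0.14 for gene-end peaks.

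**Figure D1:**
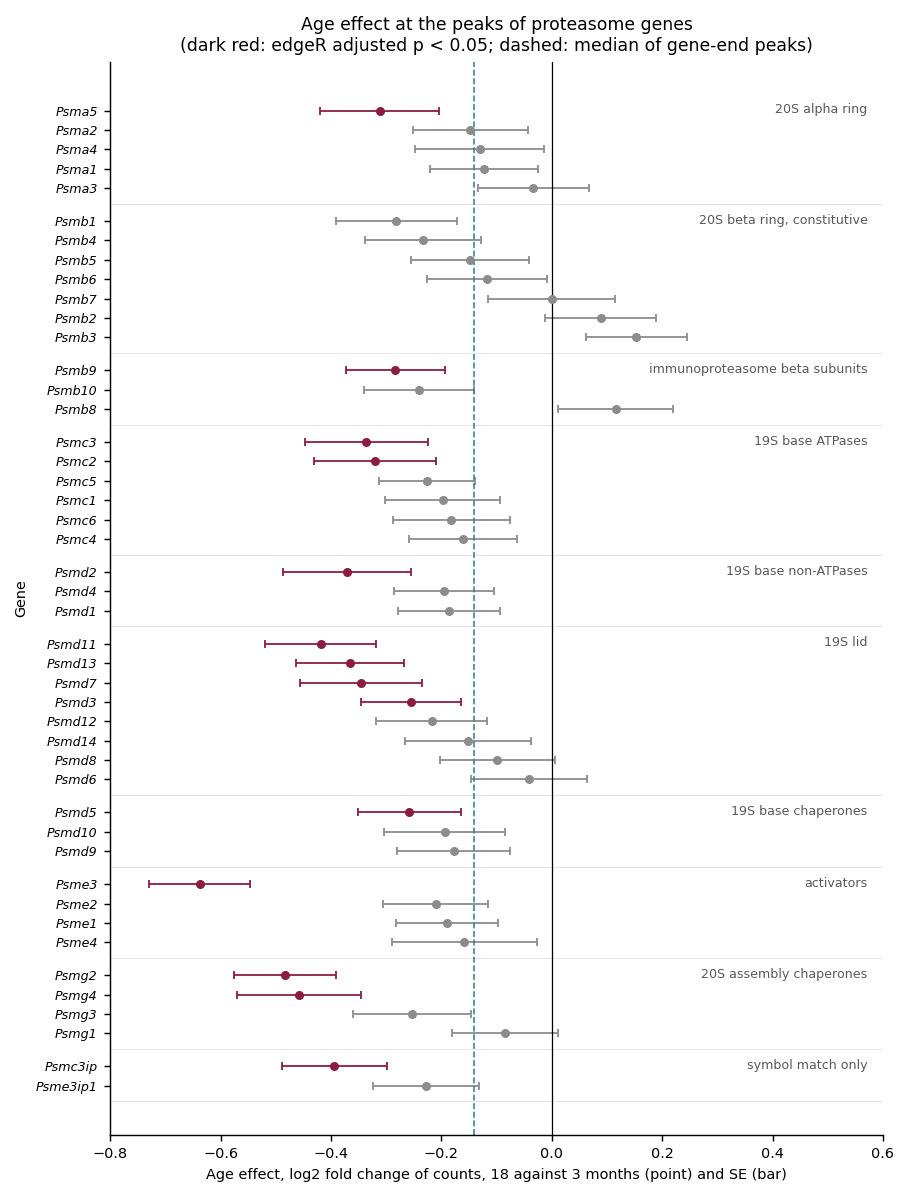
Age effect at each of the 45 peaks, as the log2 fold change of counts at 18 against 3 months (point) with its standard error (bar), grouped by the role of the gene. The 14 peaks in dark red passed the test, all below 0, and the dashed line is the median of all gene-end peaks (-0.14).

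How many members passed depended on the scaling and on single libraries. With total counts in place of TMM, 9 members were lower and 1, Psmb3, was higher, beside 20.2% and 7.23% of gene-end peaks. With offsets that follow the abundance trend, 6 were lower and 2, Psmb3 and Psmb8, were higher, beside 15.1% and 8.41%. With offsets that follow peak width, 9 were lower and Psmb3 was higher, beside 14.5% and 6.74%. DESeq2 called 15 lower and 0 higher, beside 26.7% and 3.34%. Without any 1 of 18-month female BM-42, 18-month male BM-38 or 18-month male BM-39 the count of lower members was 7, beside 20.7% to 21.1% of gene-end peaks, and without 3-month male BM-251 it was 9, beside 21.2%. Of the 14 lower members 5 were lower in all 21 other fits of the age effect: Psme3, Psmg2, Psmg4, Psmd11 and Psmc3ip.

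**Figure D2:**
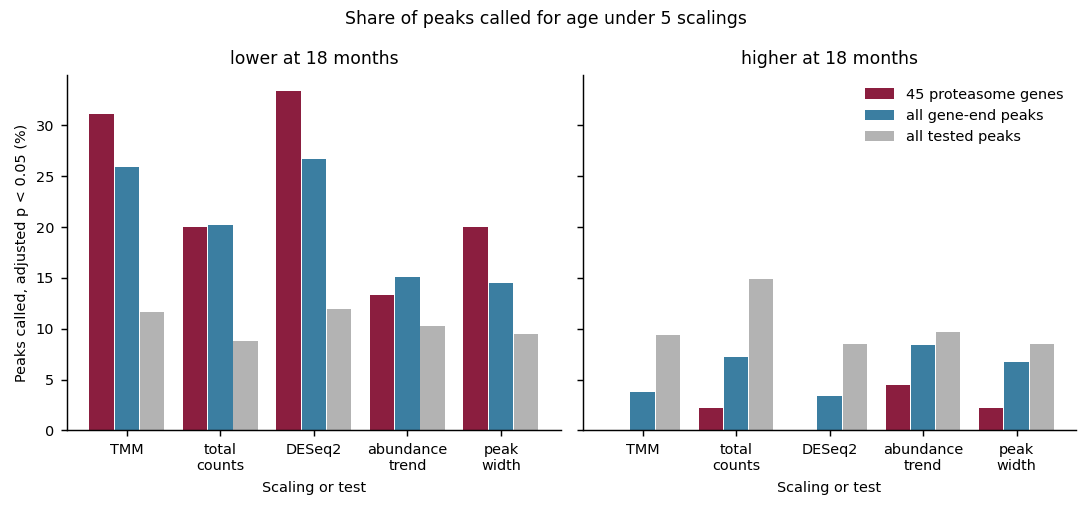
Share of peaks called lower (left) or higher (right) at 18 months, in percent, under 5 scalings, for the 45 proteasome genes, the 10864 gene-end peaks and all 75164 tested peaks. The members were lower in 31.1% under TMM and in 13.3% under abundance-trend offsets, and the gene-end peaks moved with them (25.9% and 15.1%).

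Markers of other cell types moved with age as well. Their counts are to be read beside the 25.9% of gene-end peaks that were lower and the 3.76% that were higher (edgeR). All 11 erythroid marker genes with a peak, of 20 on the list, were lower at 18 months, with a median log2 fold change of -0.82. Their summed level was 398 to 511 CPM in the 3-month libraries and 234 to 284 CPM in the 18-month libraries, and the list's genes with no gene-end peak included Ahsp, Alas2, Gata1, Hba-a2, Nfe2, Slc4a1 and Sptb. Of 23 myeloid markers with a peak, 13 were higher and 0 lower (8 higher with DESeq2), with summed levels of 384 to 617 CPM and 530 to 635 CPM. The 9 T cell markers with a peak included 2 that were higher, Cd3d and Cd28 (1 with DESeq2), with summed levels of 71.8 to 98.8 CPM and 84.9 to 112 CPM. Of 13 B cell markers with a peak 0 passed (edgeR; 3 negative at an unadjusted p under 0.05 and 0 with DESeq2). The 45 proteasome peaks summed to 1628 to 1995 CPM at 3 months and 1390 to 1829 CPM at 18 months. The part of these cell types in the proteasome values was not tested.

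Of the 3 immunoproteasome subunits, Psmb9 was lower at 18 months, and Psmb10 and Psmb8 did not pass. Values are given in the order of libraries BM-245, BM-243 and BM-244 (3-month females), BM-251, BM-253 and BM-252 (3-month males), BM-35, BM-36 and BM-42 (18-month females) and BM-38, BM-39 and BM-40 (18-month males). Psmb9, the caspase-like-site replacement also called LMP2, has its peak at chr17:34185568-34188638 over its start and that of Tap1. At 3 months the peak held 79.0, 91.6 and 75.6 CPM in females and 77.1, 85.9 and 75.1 CPM in males. At 18 months it held 75.8, 74.1 and 62.4 CPM in females and 57.3, 61.4 and 67.5 CPM in males. The ages overlapped only through 18-month female BM-35, which lay just above the lowest 3-month libraries. The means were 80.7 ± 6.60 CPM in young and 66.4 ± 7.36 CPM in old mice (SD, n = 6 each). The log2 fold change of -0.28 (SE 0.090) passed (edgeR adjusted p = 0.019). It did not pass with abundance-trend offsets (-0.06, adjusted p = 0.55) or width offsets (-0.08, adjusted p = 0.48), nor without 18-month female BM-42 (adjusted p = 0.060) or 18-month male BM-38 (adjusted p = 0.064).

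Psmb10 (MECL-1, the trypsin-like-site replacement), with its peak at chr8:105936529-105938489, held 35.7, 32.1 and 33.7 CPM in females and 35.5, 34.1 and 32.4 CPM in males at 3 months. In old mice the values were 30.0, 32.1 and 34.3 CPM in females and 28.5, 23.5 and 24.5 CPM in males. The 18-month males lay below all other libraries, and the 18-month females overlapped the 3-month mice. Over both sexes the log2 fold change was -0.24 (SE 0.099) and did not pass (edgeR adjusted p = 0.075). Within males it was -0.41 (SE 0.13) and passed (edgeR adjusted p = 0.034), and within females it was -0.08 (SE 0.13; adjusted p = 0.77). The male call was lost in 6 of the 18 other fits of that effect: with total counts, abundance-trend or width offsets (adjusted p = 0.098, 0.35 and 0.29) and without 18-month male BM-39 or BM-40 or 3-month male BM-251 (0.12 to 0.16). The difference between the sexes was not called (interaction, adjusted p = 0.55).

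Psmb8 (LMP7, the chymotrypsin-like-site replacement), with its peak at chr17:34197370-34199182, was the member of the trio whose mean was higher at 18 months. It held 26.5, 32.5 and 24.8 CPM in 3-month females and 27.5, 31.1 and 24.5 CPM in 3-month males. The 18-month values were 35.6, 31.4 and 34.7 CPM in females and 25.0, 24.9 and 30.2 CPM in males. Females BM-35 and BM-42 were above every 3-month library and female BM-36 was not, and the 18-month males lay within the 3-month range. The log2 fold change was 0.12 (SE 0.10) and did not pass (edgeR adjusted p = 0.46), but with abundance-trend offsets it was 0.25 and passed (adjusted p = 0.042). Psmb8 and Psmb9 are neighbours in the MHC region of chromosome 17, on opposite strands, and the difference between their age effects was not tested.

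The constitutive subunits that these 3 replace showed no age difference that passed. Psmb5, the chymotrypsin-like subunit, held 30.9, 24.7 and 21.7 CPM in females and 28.8, 29.9 and 32.3 CPM in males at 3 months. At 18 months it held 29.5, 24.9 and 23.7 CPM in females and 27.3, 22.0 and 24.1 CPM in males, and the ages overlapped (log2 fold change -0.15, SE 0.11, edgeR adjusted p = 0.34). Psmb6, the caspase-like subunit, held 21.4, 23.7 and 20.8 CPM in females and 29.4, 25.8 and 21.4 CPM in males at 3 months. In old mice it held 24.6, 22.4 and 22.8 CPM in females and 21.1, 18.3 and 21.4 CPM in males (log2 fold change -0.12, SE 0.11, edgeR adjusted p = 0.48). The ages overlapped here too, and the 2 highest libraries were 3-month males. Psmb7, the trypsin-like subunit, held 18.3, 17.2 and 18.1 CPM in females and 19.9, 20.1 and 15.4 CPM in males at 3 months. In old mice the values were 20.1, 21.1 and 18.7 CPM in females and 15.4, 13.3 and 20.6 CPM in males. Its mean was 18.1 ± 1.76 CPM in young and 18.2 ± 3.15 CPM in old mice (SD, n = 6 each), its log2 fold change did not pass (edgeR adjusted p = 1.0), and the 95% interval of that change ran from -0.23 to 0.23 on the log2 scale.

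**Figure D3:**
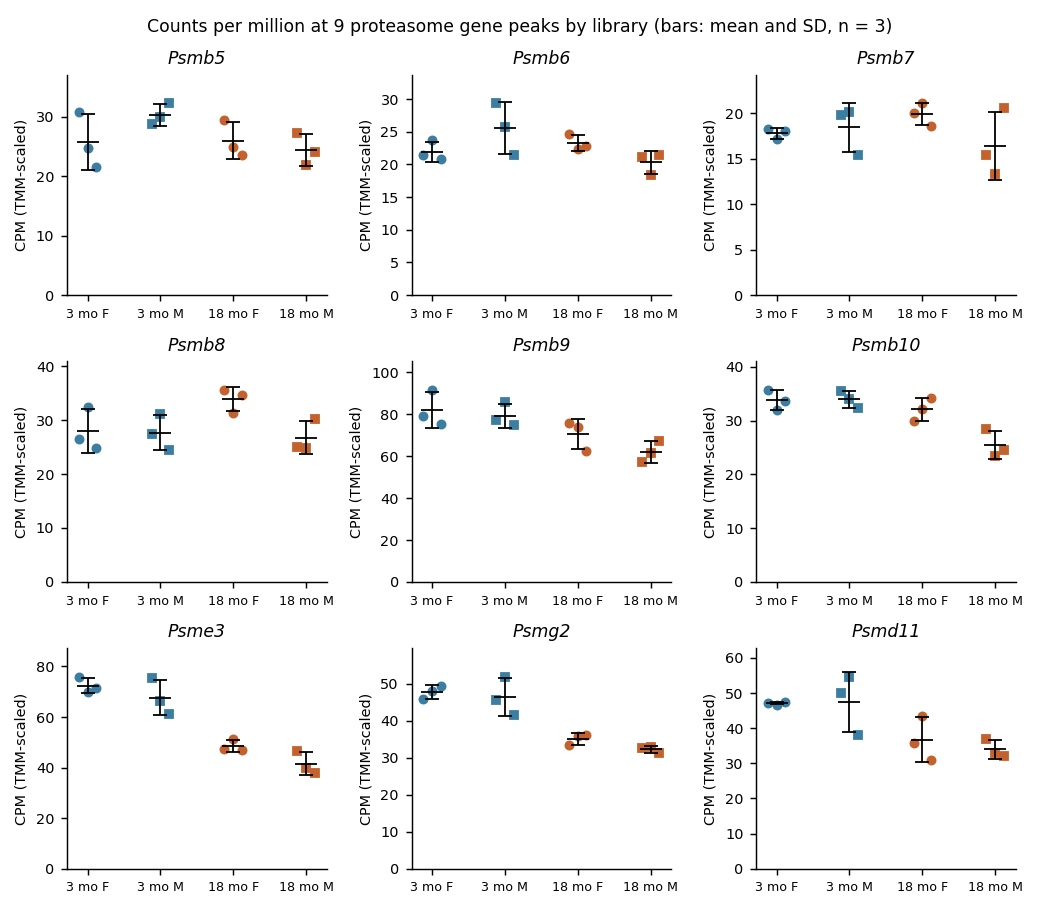
TMM-scaled CPM in each library for the catalytic subunits Psmb5, Psmb6 and Psmb7, their immunoproteasome counterparts Psmb8, Psmb9 and Psmb10, and Psme3, Psmg2 and Psmd11, with mean and SD (n = 3) per age and sex. The 18-month libraries lie below every 3-month library for Psme3 and Psmg2, and the ages overlap in the other 7 panels.

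Of the 7 constitutive beta subunits, 0 passed for age with TMM-scaled edgeR or with DESeq2, 2 had a negative value with an unadjusted p under 0.05, 5 were negative and 2 positive. The largest difference with TMM was at Psmb1, a non-catalytic beta subunit with its peak at chr17:15497746-15498798. It held 22.5, 28.9 and 23.6 CPM in females and 28.3, 27.6 and 21.4 CPM in males at 3 months. The 18-month values were 24.6, 24.2 and 21.2 CPM in females and 20.1, 15.9 and 19.6 CPM in males. The 18-month males were all below the 3-month libraries, and of the 18-month females BM-42 alone was. Over both sexes the log2 fold change of -0.28 (SE 0.11) did not pass (edgeR adjusted p = 0.061), while within males -0.48 (SE 0.15) did (adjusted p = 0.028). The male call was lost in 6 of the 18 other fits, with total counts or abundance-trend offsets (adjusted p = 0.082 and 0.15) and without 18-month male BM-39 or BM-40 or 3-month male BM-251 or BM-253 (0.051 to 0.18). The effect over both sexes passed in 5 of the 21 other fits: with 4 group means (adjusted p = 0.039) and without 18-month female BM-36, 3-month female BM-244 or BM-245 or 3-month male BM-252 (0.038 to 0.043). Psmb3, a non-catalytic subunit, had the highest log2 fold change of all members, 0.15 (SE 0.092; edgeR adjusted p = 0.24). It was higher and passed with total counts (0.23, adjusted p = 0.020), abundance-trend offsets (0.38, 1.4e-05) and width offsets (0.37, 0.00020). It held 57.8 to 76.0 CPM (median 68.2) at 3 months and 64.3 to 87.0 CPM (median 73.6) at 18 months.

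Among the alpha subunits, 1 of 5 was lower at 18 months, beside 25.9% of gene-end peaks. The other 4 had log2 fold changes from -0.15 to -0.03. The lower one was Psma5 (chr3:108256371-108258253), which held 36.4, 43.8 and 42.1 CPM in females and 46.0, 49.6 and 37.3 CPM in males at 3 months. At 18 months it held 35.7, 42.5 and 36.8 CPM in females and 25.4, 27.5 and 38.6 CPM in males. The ages overlapped, and the 2 lowest libraries were 18-month males. The log2 fold change was -0.31 (SE 0.11; edgeR adjusted p = 0.032). The call was lost with total counts, abundance-trend or width offsets (adjusted p = 0.065, 0.24 and 0.23), and without 18-month female BM-35, 18-month male BM-38, 18-month male BM-39 or 3-month male BM-251 (adjusted p from 0.053 to 0.14). Psma3, Psma2 and Psma1 were negative with TMM and positive with abundance-trend offsets. The Psma3 peak taken by the rule did not cover the listed start. A second Psma3 peak, which did (chr12:70973749-70976088), had a log2 fold change of -0.24 (SE 0.10; edgeR adjusted p = 0.079).

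In the base of the cap, the ATPases Psmc3 and Psmc2 were lower and the other 4 ATPases did not pass. Beside them, 25.9% of gene-end peaks were lower. Psmc3 held 30.7, 29.02 and 30.7 CPM in females and 33.9, 34.3 and 25.0 CPM in males at 3 months. In old mice the values were 27.9, 26.3 and 23.4 CPM in females and 22.2, 16.5 and 29.4 CPM in males. The ages overlapped, with male BM-40 well above the other 18-month males. The log2 fold change was -0.34 (SE 0.11; edgeR adjusted p = 0.026), and that of Psmc2 was -0.32 (SE 0.11; adjusted p = 0.031). Both calls were lost under total counts and under abundance-trend offsets (adjusted p of Psmc3 0.057 and 0.11, of Psmc2 0.076 and 0.11), and that of Psmc2 also under width offsets (0.085). They were also lost without any 1 of 18-month female BM-42, 18-month males BM-38 and BM-39 and 3-month male BM-251 (adjusted p from 0.052 to 0.12), and that of Psmc2 without 3-month female BM-244 or BM-245 (0.052 and 0.091). At Psmc5 the 6 libraries at 18 months (46.7 to 55.8 CPM) lay below the 6 at 3 months (55.9 to 64.8 CPM), yet the difference did not pass (log2 fold change -0.23, SE 0.088, edgeR adjusted p = 0.057), though it did with DESeq2 (adjusted p = 0.011), with 4 group means (edgeR, 0.046) and without 3-month male BM-253 (edgeR, 0.038).

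Psmd2, the large non-ATPase scaffold of the base, was lower, and the ubiquitin receptor Psmd4 and the scaffold Psmd1 were not called. The Psmd2 peak (chr16:20651284-20652449) held 22.9, 26.5 and 22.3 CPM in females and 20.6, 27.1 and 22.8 CPM in males at 3 months. The 18-month values were 20.1, 21.6 and 16.4 CPM in females and 19.1, 12.3 and 20.6 CPM in males. The 18-month libraries other than female BM-36 lay below every 3-month library. The log2 fold change was -0.37 (SE 0.12; edgeR adjusted p = 0.017), and it did not pass without 18-month female BM-42 (adjusted p = 0.053) or 18-month male BM-39 (adjusted p = 0.079).

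The lid had 4 lower genes of 8: Psmd11, Psmd13, Psmd7 and Psmd3. Beside them, 25.9% of gene-end peaks and 27.8% of the top 25% by abundance were lower. Of the 4, only Psmd11 kept its call in all 21 other fits. Psmd11, a scaffold subunit of the lid (chr11:80427934-80430357), held 47.2, 46.7 and 47.4 CPM in females and 50.1, 54.6 and 38.1 CPM in males at 3 months. At 18 months it held 35.7, 43.5 and 31.0 CPM in females and 36.9, 32.9 and 32.1 CPM in males. The ages overlapped only through 18-month female BM-36 and 3-month male BM-252. The log2 fold change was -0.42 (SE 0.10; edgeR adjusted p = 0.0018), and over the 21 other fits it ran from -0.49 to -0.24 with adjusted p of at most 0.045. Psmd13, another structural subunit of the lid, fell by 0.37 on the log2 scale (SE 0.098; adjusted p = 0.0052), at a peak that also covers Sirt3. Psmd7, the partner of the deubiquitinase Psmd14, had a log2 fold change of -0.35 (SE 0.11; adjusted p = 0.020) and Psmd3 one of -0.26 (SE 0.091; adjusted p = 0.038). Over the 21 other fits the Psmd13 call was lost with abundance-trend offsets alone (adjusted p = 0.056). That of Psmd7 was lost in 5, with abundance-trend offsets (0.076) and without 18-month female BM-42, 18-month males BM-38 and BM-39 or 3-month male BM-251 (0.052 to 0.073). That of Psmd3 was lost in 11, with abundance-trend offsets (-0.05, 0.66), width offsets (-0.09, 0.45), total counts (0.083) and peaks summed within 1 kb (0.069), and without 18-month females BM-35 and BM-42, 18-month males BM-38, BM-39 and BM-40, 3-month female BM-243 or 3-month male BM-253 (0.053 to 0.096). Psmd14, the enzyme that removes the ubiquitin chain, did not pass (-0.15, SE 0.11, adjusted p = 0.37), with 16.4 to 26.6 CPM at 3 months and 17.7 to 24.9 CPM at 18 months.

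Of the chaperones that assemble the base, Psmd5 was lower and Psmd9 and Psmd10 (gankyrin) did not pass. Psmd5 (chr2:34869101-34871691) held 57.9, 55.8 and 60.0 CPM in females and 59.7, 64.1 and 49.6 CPM in males at 3 months. In old mice the values were 55.4, 54.4 and 47.8 CPM in females and 47.1, 42.1 and 43.8 CPM in males. The ages overlapped through the low 3-month male BM-252, and the log2 fold change was -0.26 (SE 0.093; edgeR adjusted p = 0.040). This call was lost in 11 of the 21 other fits, among them total counts (adjusted p = 0.087), abundance-trend offsets (0.59) and width offsets (0.56). It was also lost without 18-month female BM-42, 18-month males BM-38, BM-39 and BM-40, 3-month female BM-244 or 3-month males BM-251 and BM-253 (0.052 to 0.098).

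The largest age difference of all members with TMM was at an activator, though with width offsets that of Psmg4 was larger (-0.49 against -0.44). Psme3 encodes PA28 gamma, the nuclear activator that opens the core without ATP, and its peak (chr11:101314585-101317369) spans the start. It held 75.8, 70.0 and 71.4 CPM in females and 75.3, 66.5 and 61.3 CPM in males at 3 months. The 18-month values were 47.3, 51.3 and 47.1 CPM in females and 46.7, 39.996 and 37.9 CPM in males. Every 18-month library was below every 3-month library, in both sexes. The mean was 70.1 ± 5.51 CPM in young and 45.04 ± 5.05 CPM in old mice (SD, n = 6 each), and the log2 fold change was -0.64 (SE 0.091; edgeR adjusted p = 5.4e-07). Across the 21 other fits it ran from -0.67 to -0.44, with adjusted p of at most 3.5e-05. The interferon-inducible activators Psme1 and Psme2, which form PA28 alpha-beta, did not pass. Psme1 was non-overlapping (34.2 to 41.6 CPM at 18 months, 42.7 to 49.1 CPM at 3 months), with a log2 fold change of -0.19 (SE 0.092; adjusted p = 0.14). Psme2 held 83.5 to 128 CPM at 3 months and 79.9 to 103 CPM at 18 months (-0.21, SE 0.095, adjusted p = 0.11), but passed without 18-month female BM-36 or 3-month female BM-244 (adjusted p = 0.038 in both). Psme4 (PA200) did not pass (-0.16, SE 0.13, adjusted p = 0.42).

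Both Psmg2 and Psmg4, of the 4 chaperones that assemble the core, were lower, beside 25.9% of gene-end peaks. Psmg2, which acts as a pair with Psmg1 in alpha ring assembly, shares its peak with the neighbour Cep76. It held 45.8, 48.0 and 49.4 CPM in females and 45.5, 51.8 and 41.6 CPM in males at 3 months. At 18 months it held 33.3, 35.7 and 36.1 CPM in females and 32.5, 33.0 and 31.2 CPM in males, with no overlap between the ages. The mean was 47.0 ± 3.52 CPM in young and 33.6 ± 1.89 CPM in old mice (SD, n = 6 each), and the log2 fold change was -0.48 (SE 0.093; edgeR adjusted p = 0.00011). Psmg4 had a log2 fold change of -0.46 (SE 0.11; adjusted p = 0.0023), with 16.6 to 25.6 CPM at 3 months and 12.6 to 22.4 CPM at 18 months. Psmg2's partner Psmg1 did not pass (-0.08, SE 0.097, adjusted p = 0.58, and positive with abundance-trend or width offsets), with 33.9 to 39.4 CPM and 27.6 to 38.9 CPM. Whether the effects of Psmg1 and Psmg2 differ was not tested.

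The symbol rule also admitted Psmc3ip and Psme3ip1, named for binding a proteasome subunit or activator. Psmc3ip (HOP2), which acts in meiotic recombination, held 46.9, 43.7 and 39.5 CPM in females and 43.9, 40.4 and 39.1 CPM in males at 3 months. In old mice the values were 30.3, 38.2 and 32.5 CPM in females and 33.0, 28.9 and 29.9 CPM in males, with no overlap (log2 fold change -0.39, SE 0.095, edgeR adjusted p = 0.0020). Without both genes, 13 of 43 members were lower. In all, 5 members had 18-month libraries entirely below the 3-month libraries (Psme3, Psmg2, Psmc3ip, Psmc5 and Psme1), or 11.1%, against 5.04% of all tested peaks, 8.79% of gene-end peaks and 13.8% of the top 25% by abundance. The members' share lay between those of the like peaks. In 0 members were they entirely above, against 2.2% of all tested and 0.874% of gene-end peaks.

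The 6 genes without a peak by the rule were Psma6, Psma7, Psma8, Psmb11, Psme2b and Psmf1. Psma8 is the testis form of an alpha subunit and Psmb11 the thymus form of a beta subunit. For 3 of the 6, a peak over an annotated start lay outside the rule, and these peaks were looked up after the other values were known. Psmf1, the inhibitor PI31, had a peak 5651 bp wide whose centre lay 2792 bp from the gene end. Its mean was 86.5 ± 8.11 CPM in young and 56.4 ± 3.29 CPM in old mice (SD, n = 6 each). That log2 fold change was -0.62 (SE 0.089; edgeR adjusted p = 7.5e-07). Psma7 had a peak 1084 bp from the gene end with a log2 fold change of -0.46 (SE 0.091; adjusted p = 0.00017). The peak of Psma6 lay much farther off, 14735 bp from the nearest gene end, with a log2 fold change of -0.22 (SE 0.12; adjusted p = 0.17). At other peaks of the 45 genes, 0 of 9 second peaks near a gene end passed (edgeR, smallest adjusted p = 0.19, at Psmb10), and 2 of 38 peaks inside 22 of the genes were lower, or 5.26%, below the 11.6% of all tested peaks. The 2 lay in Psmd9 (-0.41) and Psmd10 (-0.67, SE 0.14, adjusted p = 0.00044), although the promoter peaks of both genes did not pass.

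Within the sexes, 2 members, Psme3 and Psmg2, were lower in 18-month females, where 6.2% of all tested peaks and 9.21% of gene-end peaks were lower. None was higher (edgeR; 2 at an unadjusted p under 0.05 and 0 with DESeq2), against 5.7% and 3.5%. In males 15 members were lower and 0 higher, beside 8.18% of all tested peaks and 24.4% of gene-end peaks lower and 3.21% and 1.06% higher (0 higher also at an unadjusted p under 0.05 or with DESeq2). Of the 15, 11 also passed over both sexes, and Psmb1, Psmb10, Psmd10 and Psme3ip1 passed in males but not over both sexes. Of the 18 other fits of the male effect, the call of Psmd10 was lost in 13 and that of Psme3ip1 in 5. Of the 11 called over both sexes too, the male call of Psmb9 was lost in 13, that of Psmd5 in 9, that of Psmc3 in 8 and those of Psmd11 and Psmc3ip in 6. Those of Psma5 and Psmd7 were lost in 4, of Psmg2 and Psmg4 in 2 and of Psmd13 in 1, and that of Psme3 was kept in all 18. Over both sexes Psme3ip1 passed in 4 of the 21 other fits (adjusted p from 0.021 to 0.049). The median log2 fold change was -0.11 in females and -0.32 in males, and the gene-end peaks had medians of -0.06 and -0.23. At Psme3 the effect was -0.58 (SE 0.12) in females and -0.70 (SE 0.13) in males, and at Psma5 it was -0.09 (SE 0.14) and -0.54 (SE 0.14). The difference between the sexes itself passed for 0 members (edgeR, smallest adjusted p = 0.37; 0 also with DESeq2), and for 0.00532% of all tested peaks. An unadjusted p under 0.05 was seen for 6 members, or 13.3% against 10% of all tested peaks and 15.2% of gene-end peaks. The interaction was negative in 42 of the 45 members, or 93.3%, against 51.0% of all tested peaks and 73.8% of gene-end peaks, and it rests on 18-month sexes that were sequenced in different runs.

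**Figure D4:**
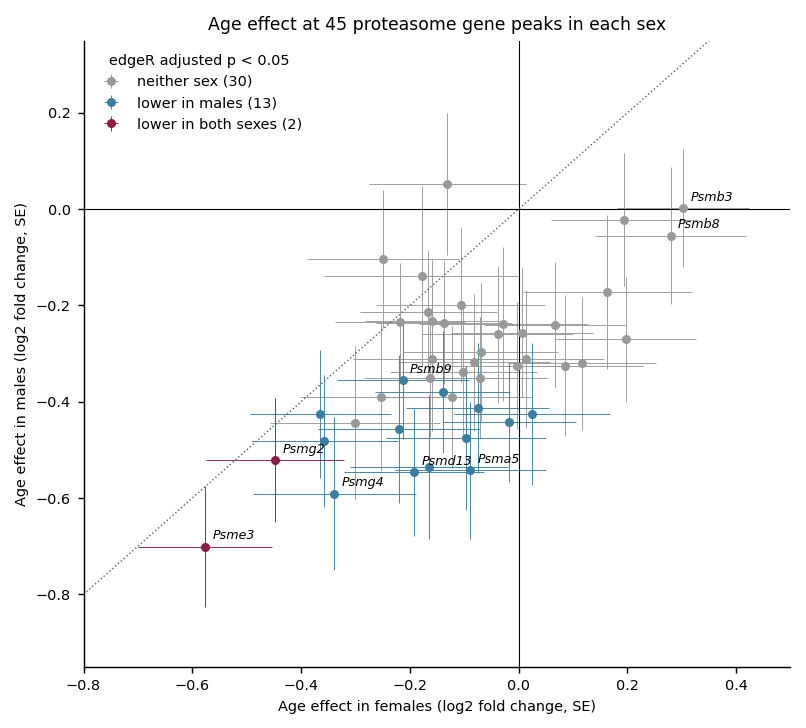
Age effect (log2 fold change, 18 against 3 months, with SE) in females on the horizontal and in males on the vertical axis, for the 45 peaks; the dotted line marks equal effects. The 2 peaks lower in both sexes are Psme3 and Psmg2, 13 were called in males and not in females, and 42 of the 45 points lie below the line.

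The male count depended on single libraries and on scaling. It was 27, or 60% of the members, without 3-month male BM-252, which had the lowest summed level of the 3-month libraries (1628 CPM), and the share of gene-end peaks in that fit was 38.1%. It was 4 without 3-month male BM-251, 5 without 18-month male BM-39, 7 without 18-month male BM-38 and 9 without 3-month male BM-253, while the share of gene-end peaks was 13.1%, 12.6%, 13.9% and 14.8% in these fits. Without male BM-252 the sex difference also passed for 2 members, Psma3 (-0.57, adjusted p = 0.046) and Psme3ip1 (-0.55, adjusted p = 0.036). The share of all peaks that passed for it in that fit was not counted, so these 2 calls are not a result about proteasome genes in particular. The female count was 4 without 18-month female BM-36 or 3-month males BM-252 or BM-253, with Psmc3ip and Psmd11 added each time, beside 6.57%, 12.2% and 13.4% of gene-end peaks. It was 1 without 18-month female BM-35 or 3-month female BM-244, beside 5.26% and 6.65%. Psmb3 was higher in females without male BM-252 (0.30, adjusted p = 0.034) or BM-253 (0.29, 0.047), and with total counts, abundance-trend offsets, width offsets and a filter of CPM above 5 in 6 or more libraries (0.31 to 0.46, adjusted p from 0.00054 to 0.042). Psma3 was higher in females with abundance-trend offsets (0.30, adjusted p = 0.033) and width offsets (0.33, 0.035). In males, 8 members were lower with total counts, 6 with width offsets and 2 with abundance-trend offsets, under which Psmb3 was higher, beside 16.1%, 9.49% and 6.70% of gene-end peaks lower. Between males and females over both ages, 0 members passed (edgeR, smallest adjusted p = 0.28, at Psmg4; 0 with DESeq2), where 0.144% of all tested peaks were lower and 0.0186% higher in males. An unadjusted p under 0.05 was seen for 2 members, or 4.44% against 7.57% of all tested peaks and 11.6% of gene-end peaks.

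Genes that work with the proteasome were read at their own gene-end peaks. Of the proteasome-associated factors outside the symbol rule, 4 of 12 with a peak were lower and 0 higher (median -0.24). They included Usp14, the deubiquitinase bound to the cap (-0.69, SE 0.099, edgeR adjusted p = 7.5e-07), the shuttle factor Ubqln1 (-0.45, SE 0.099, adjusted p = 0.00062) and Zfand5 (-0.40, SE 0.092, adjusted p = 0.0011). The mean at Usp14 was 39.7 CPM in young and 24.7 CPM in old mice.

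Of 7 genes with a peak that act in the control of proteasome transcription, 3 were lower and 0 higher (median -0.25). They were Ddi2, the protease that activates NFE2L1 (-0.57, SE 0.096, edgeR adjusted p = 1.5e-05), Ngly1, which removes its sugar chains (-0.49, SE 0.11, adjusted p = 0.00059), and Keap1 (-0.41, SE 0.089, adjusted p = 0.00066). Of the p97 unfoldase and its cofactors, 3 of 7 were lower: Faf1 (-0.37), Vcp (-0.30) and Nploc4 (-0.27).

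In MHC class I antigen processing, which takes up proteasome products, 3 of 8 genes with a peak were lower and 0 higher (median -0.18). These were the chaperones Pdia3 (-0.49, SE 0.097, edgeR adjusted p = 0.00016) and Canx (-0.27, SE 0.093, adjusted p = 0.030), and Tap1 through the peak it shares with Psmb9. Of the 9 genes that relay interferon to the immunoproteasome, 0 passed with edgeR, 4 had a negative value at an unadjusted p under 0.05 and 1 was lower with DESeq2 (median -0.14). Irf9 had the smallest adjusted p (-0.23, SE 0.088, adjusted p = 0.058). Of 11 interferon response genes with a peak, 3 were lower, Usp18, Rsad2 and Isg15, and the list's median was 0.01. These counts are to be read beside the 25.9% of gene-end peaks that were lower.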

How the data were processed

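ATAC-seq of NZO/HILtJ bone marrow gave 12 libraries, 3 per age and sex. The authors deposited raw read counts per consensus peak. The submitters' processing notes name Trimmomatic, BWA, MACS2, DiffBind, edgeR and mm10. Duplicate removal, read shifting and the counting rule are not given in the sources used here. No molecular identifiers are described, so counting error may be understated.

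A peak entered the fit when CPM exceeded 1 in 2 or more libraries, which kept 75164 peaks. The quasi-likelihood F test of edgeR 4.0.16 with TMM factors (R 4.3.3) used an additive model for age and sex, and 4 group means for effects within a sex and for the interaction. P-values were adjusted by Benjamini-Hochberg over those peaks at a threshold of 0.05. Alternatives were other scalings, DESeq2 1.42.0, other filters, windows and models, and leaving out each library. Gene ends and promoters came from RefSeq GRCm38.p6 tables without exons.

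All members could be named. Values in every library are given for the 6 catalytic beta subunits and the member with the largest absolute age effect per role, and at most 3 genes per pathway list are named. Members and lists were chosen with earlier results of these data known.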

Additional observations from a re-analysis of the deposited data

Results flagged for a closer look

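One value stood apart from its group. At Psmd1, a scaffold of the base of the 19S cap, 3-month male BM-252 held 40.7 CPM, while the other 5 libraries of that age held 49.4 to 53.0 CPM. The gap to the nearest of them was 0.709 of the group's whole range, above the critical value of Dixon's outlier test for 6 libraries. It was the 1 such value among 90 groups of 6 libraries checked (45 peaks at 2 ages), where chance marks about 1 in 20. The age effect at Psmd1 did not pass in any of the 21 other fits, the fit without that library among them.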

How the results depend on the processing

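With total counts, 9 members were lower and 1 higher for age, 1 was higher in females (5.33% of gene-end peaks were) and 8 were lower in males. With abundance-trend offsets, 6 were lower and 2 higher for age (median -0.055, and -0.036 for gene-end peaks), 2 were higher in females (6.41% of gene-end peaks), and in males 2 were lower and 1 higher. With width offsets, 9 were lower and 1 higher (median -0.084, and -0.051 for gene-end peaks), 2 were higher in females (5.63% of gene-end peaks) and 6 lower in males. With a filter of CPM above 5 in 6 or more libraries, 4 were lower and 1 higher in females, below the 11.4% and 4.73% of gene-end peaks. Psmb7, near 0 with TMM, became positive: 0.076 with total counts, 0.047 with abundance-trend offsets, 0.035 with width offsets, 0.027 with the stricter filter and 0.0072 without the sex covariate. For these results the cause was not tested. Without 1 library each, the ranges were 7 to 17 members lower for age, 1 to 4 lower and 0 to 1 higher in females, 4 to 27 lower in males, 0 to 2 that passed for a negative interaction, and -0.059 to 0.073 for Psmb7. Of the values for single counts and medians, 184 stayed within the set limits and 34 did not. Of the other values compared, 254 stayed the same, 30 were weaker, 6 were stronger and 10 were reversed. No paired analysis was possible because no mouse number occurs in more than 1 group and no run holds both ages; both sexes at 3 months shared runs 29 and 31, but sex was not fitted with run as a block. All member peaks had at least 90 counts per library.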
